A study of Rattus norvegicus with 7 samples.

Results

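Messenger RNA of 8 genes that encode junction proteins of the blood-testis barrier was followed in rat testis after cadmium: Cldn11, Ocln, Tjp1, Cdh2, Ctnnb1, Ctnna1, Gja1 and F11r. They are read on the array by 18 of its 31042 probe sets that are not controls, namely all those that the platform annotation gives to one of the 8 genes alone. In all, 14217 genes have a probe set of their own, and all 7 arrays were used. The rule that picks the probe sets uses no measured value. Adult male Sprague-Dawley rats, an outbred stock, were either untreated (n = 3) or given a single intraperitoneal injection of cadmium chloride at 3 mg/kg body weight and killed 8 h (n = 2) or 20 h (n = 2) later. Whole testis was used, so the arrays carry RNA of germ cells, Sertoli cells, Leydig cells and blood vessels together. The labels call the arrays of a group biological replicates; they do not say how many animals went into an array, and no vehicle injection is described for the untreated rats.

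The blood-testis barrier lies between neighbouring Sertoli cells near the base of the seminiferous tubule and separates meiotic and later germ cells from the blood. It joins tight junctions, an actin-rich adherens junction called the basal ectoplasmic specialization, gap junctions and desmosomes in one belt, which opens and closes again as preleptotene spermatocytes pass. Claudin-11, occludin and JAM-A (the products of Cldn11, Ocln and F11r) are the membrane proteins of its tight junctions, and ZO-1 (Tjp1) is the scaffold under them. N-cadherin (Cdh2) with beta-catenin (Ctnnb1) and alpha-catenin (Ctnna1) forms the adherens complex, and connexin 43 (Gja1) forms gap junctions between Sertoli cells and is also made by Leydig cells. The testis is known as a sensitive target of cadmium, which damages both its vessels and this barrier. An array measures RNA only, and the place or amount of the proteins was not measured.

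The upstream sequences of 3 members are shown first, because they are the DNA from which the RNA measured here is started and because their letters differ between a Sertoli tight junction claudin, a broadly expressed tight junction protein and a connexin. They are from RefSeq, build GRCr8, and run 5′ to 3′ towards the start of the transcript. Capitals mark matches, on either strand, to 7 short motifs: CCAAT (the CCAAT box), TGACG (the core of the cAMP response element), TGANTCA (AP-1), CAGGTG (an E-box of the Snail type), GGGCGG (the GC box) and the letters TGCGCNC and TGCACNC of the metal response element. No matches of different motifs overlapped. Of the 8 genes, 6 had an entry in the RefSeq promoter table: Cldn11, Ocln, Tjp1, Ctnnb1, Gja1 and F11r. The first line is chr2:114149540-114149789 on the minus strand, the second chr13:86405979-86406228 on the plus strand, and the third chr20:36302314-36302489 on the plus strand, the first 176 of the 250 bases of the Gja1 entry; the rest of that entry lies inside the gene as RefSeq bounds it.
Cldn11: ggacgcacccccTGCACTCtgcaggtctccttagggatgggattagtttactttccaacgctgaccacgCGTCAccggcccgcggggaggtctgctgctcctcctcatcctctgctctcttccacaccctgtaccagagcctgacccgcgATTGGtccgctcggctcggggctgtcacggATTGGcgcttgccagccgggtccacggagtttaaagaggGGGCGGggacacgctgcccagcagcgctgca
F11r: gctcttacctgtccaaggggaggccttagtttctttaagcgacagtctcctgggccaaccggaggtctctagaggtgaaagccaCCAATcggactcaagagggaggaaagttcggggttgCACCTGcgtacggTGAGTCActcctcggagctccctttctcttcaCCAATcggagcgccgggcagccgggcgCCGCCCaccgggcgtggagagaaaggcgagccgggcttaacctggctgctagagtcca
Gja1: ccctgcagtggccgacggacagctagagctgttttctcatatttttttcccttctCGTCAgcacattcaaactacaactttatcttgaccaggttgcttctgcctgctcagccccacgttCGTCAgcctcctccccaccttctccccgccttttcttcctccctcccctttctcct
The Cldn11 sequence holds 2 reverse CCAAT boxes, which end 96 and 66 bases before the start, a reverse match to TGACG, a GC box and the letters TGCACNC. The F11r sequence also holds 2 CCAAT boxes, with an AP-1 match, an E-box and a GC box between or beside them. The Gja1 sequence holds 2 reverse matches to TGACG, and the part not printed holds AP-1 and TGCGCNC. The 250 bases before the start of Ocln hold 2 matches to CAGGTG, those of Ctnnb1 hold 3 to TGACG, and those of Tjp1 hold none of the 7; these 3 starts lie inside the gene and are not printed. Among 33469 rat promoters of the same length, CCAAT occurs in 34.0%, GGGCGG in 30.5%, TGACG in 18.2%, CAGGTG in 15.9%, TGCGCNC in 11.8%, TGCACNC in 10.3% and TGANTCA in 6.3%. These are matches of letters, not binding sites, and nothing in the arrays bears on whether a factor binds them.

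The deposited value of a probe set is a signal intensity, and the deposited values share one trimmed mean, 250.1 on every array, and array medians were 52.8 to 71.9. Hybridization took place over 3 days. Day 1 holds untreated replicate 1 with 20 h replicate 1, day 2 holds untreated replicate 2 alone, and day 3 holds the remaining 4 arrays: untreated replicate 3, the 8 h pair and 20 h replicate 2. Array medians were 52.8 to 57.0 on day 3 and 63.1 to 71.9 on days 1 and 2. Actin probe sets at the 3′ end read higher than those at the 5′ end by 1.188 to 1.417 (log2) on day 3 and by 0.731 to 0.983 on days 1 and 2, a gap that depends on RNA integrity and labelling. The same difference for Gapdh overlapped between days, from -0.34 to -0.098 on day 3 and from -0.205 to -0.119 on days 1 and 2. The instrument's record for untreated replicate 2 gives mouse as its sample type, while its labels and array type are rat. All 13 Sertoli cell markers with a probe set and all 8 Leydig cell markers passed the filter on low signal, as did 7 of 7 spermatocyte and 9 of 9 spermatid markers, and 0 of 6 neutrophil markers did. Summed Sertoli marker signal was 15953 to 17870 in untreated testis, 17927 to 18818 at 8 h and 16849 to 19194 at 20 h. This sum leans on the brightest markers, Clu and Aard. Against the untreated array of their day, the 8 h arrays had 9 and 6 of the 13 lower, with medians of -0.04 and 0.0. The 20 h arrays had 5 and 8 lower, with medians of 0.02 and -0.03.

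None of the 8 genes changed in a way that passed the test at either time. Of their 18 probe sets, 15 passed the filter on low signal (above the 40th percentile of the array on at least 2 arrays), and every gene kept at least 1. With limma, fitted on log2(signal + 15) over all 20857 probe sets kept, 0 of the 15 had an adjusted p under 0.05 at 8 h or at 20 h, where the share of all probe sets was 0%. At an unadjusted p under 0.05 there was 1 of 15 at 8 h, against 5.22% of all probe sets, and 0 of 15 at 20 h, against 3.11%. Adjusted p-values of the 15 ran from 0.836 to 0.989 at 8 h and were 0.999 at 20 h. Both comparisons use the same untreated arrays.

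**Figure D1:**
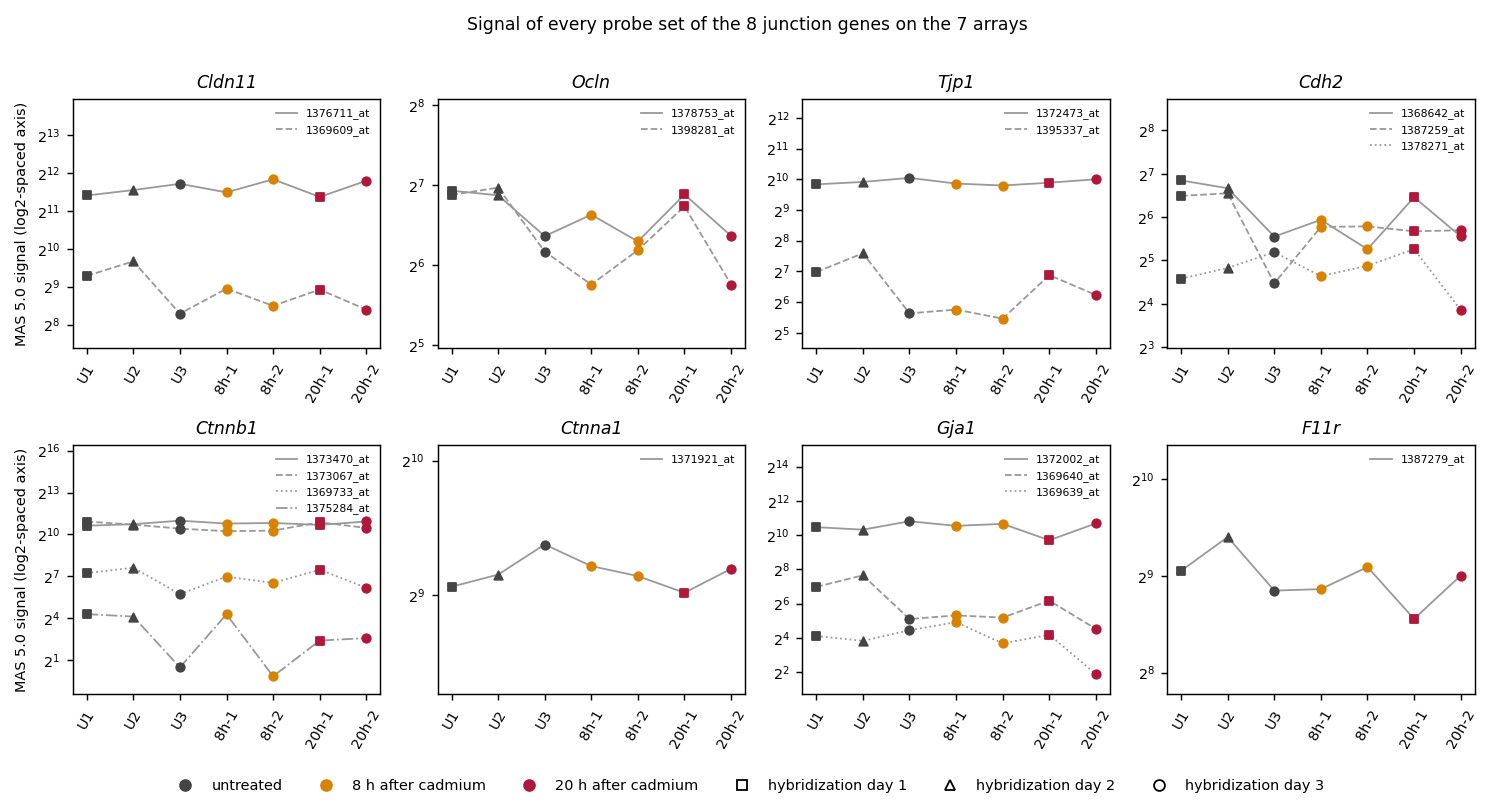
Signal of every probe set of the 8 genes (y axis, MAS 5.0 signal, spaced as log2, with a range of its own in each panel) on the 7 arrays (x axis; U, untreated). Colour gives the group, marker shape the hybridization day, and a line joins the values of 1 probe set without implying an order of arrays. The dashed probe sets of Cldn11, Tjp1 and Gja1 sit lower on the day 3 arrays (circles) than on the day 1 and day 2 arrays, apart from a small overlap in Cldn11, while the solid ones do not.

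Among the tight junction membrane proteins, claudin-11 makes the strands of the Sertoli tight junction. The leading Cldn11 probe set, 1376711_at (the one with the highest mean log2 signal of its gene), gave 2714.5, 2996.9 and 3361.6 in untreated testis, 2874.8 and 3648.7 at 8 h, and 2644.8 and 3551.1 at 20 h. The 3 groups overlap, and each cadmium group has 1 array at or near the bottom of the untreated range and 1 above it. The log2 fold change was 0.10 ± 0.18 (SE) at 8 h, with a 95% interval from -0.29 to 0.50, and 0.02 ± 0.18 at 20 h, with an interval from -0.37 to 0.42 (limma, adjusted p = 0.923 and 0.999). On the linear scale these intervals reach from 0.82 to 1.41 times the untreated level at 8 h and from 0.77 to 1.34 times at 20 h. The other Cldn11 probe set, 1369609_at, gave 623.4, 813.6 and 312.4 in untreated testis, 493.7 and 360.5 at 8 h, and 485.6 and 336.7 at 20 h, and all cadmium arrays lie inside the untreated range. Its log2 fold changes were -0.35 ± 0.35 and -0.41 ± 0.35 (SE), and 0.30 and -0.12 when the hybridization day was fitted as a block (a day block). Untreated replicate 2 was alone on its day, so a day block sets that array aside, here and below. Both 8 h arrays were above the untreated array of their day on this probe set, by 0.64 and 0.20. The leading probe set had -0.08 and 0.02 with the block. The probe sets of Cldn11 thus had opposite signs at 8 h in either fit, each turning its sign with the block, and were not ordered alike over the arrays, with r = -0.68 over 7 arrays, which share the hybridization days.

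Occludin, a tight junction protein that spans the membrane, is read by 2 probe sets. Ocln 1378753_at gave 122.0, 117.3 and 82.3 in untreated testis, 99.1 and 78.6 at 8 h, and 118.1 and 82.5 at 20 h. The lowest untreated and the lowest 20 h value both came from day 3. Its log2 fold change was -0.23 ± 0.26 (SE) at 8 h and -0.08 ± 0.26 at 20 h (limma, adjusted p = 0.878 and 0.999). With a day block the 8 h value turned to 0.08 and the 20 h value was -0.02. Ocln 1398281_at gave 117.6, 125.3 and 72.0 in untreated testis, 54.1 and 72.9 at 8 h, and 106.5 and 54.1 at 20 h. At 8 h 1 array lay below the untreated range and the other inside it, and at 20 h likewise. The log2 fold changes were -0.59 ± 0.33 and -0.36 ± 0.33 (SE), and -0.11 and -0.23 with a day block. The Ocln probe sets went together over the arrays (r = 0.79, 7 arrays).

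F11r encodes JAM-A, an immunoglobulin-type adhesion protein of tight junctions that is also found on endothelium and leukocytes. Its probe set, 1387279_at, gave 530.6, 675.5 and 460.3 in untreated testis, 465.2 and 545.0 at 8 h, and 375.8 and 512.6 at 20 h. Only 20 h replicate 1 lay outside the untreated range. The log2 fold change was -0.12 ± 0.21 (SE) at 8 h and -0.31 ± 0.21 at 20 h, with a 95% interval from -0.77 to 0.15 (limma, adjusted p = 0.923 and 0.999). Against the untreated array of its day, 20 h replicate 1 differed by -0.48 and 20 h replicate 2 by 0.15, so the 20 h arrays had opposite signs.

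Tjp1, the ZO-1 scaffold that ties occludin and claudins to actin, had the narrowest intervals of the 8 genes on its leading probe set. Tjp1 1372473_at gave 912.6, 964.0 and 1055.7 in untreated testis, 929.3 and 889.0 at 8 h, and 947.6 and 1023.3 at 20 h. Only 8 h replicate 2 lay outside the untreated range. The log2 fold change was -0.10 ± 0.14 (SE) at 8 h, with a 95% interval from -0.41 to 0.21, and 0.01 ± 0.14 at 20 h, from -0.29 to 0.32 (limma, adjusted p = 0.896 and 0.999). Tjp1 1395337_at was more spread in untreated testis, with 126.1, 192.4 and 49.6 in untreated testis, 54.0 and 44.0 at 8 h, and 117.5 and 75.1 at 20 h. Its log2 fold change at 8 h was -0.95 ± 0.44 (SE; limma, unadjusted p = 0.056, adjusted p = 0.836), and -0.16 with a day block. Untreated replicate 3, the untreated array of the same day, had 49.6 and lay between the 8 h arrays.

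In the adherens complex, Cdh2 encodes N-cadherin, the classical cadherin between Sertoli cells and between Sertoli and germ cells. Cdh2 1368642_at gave 115.2, 101.6 and 46.9 in untreated testis, 61.3 and 38.3 at 8 h, and 88.0 and 47.0 at 20 h. All 4 day 3 arrays lay below the 3 others, whatever their group. The log2 fold change at 8 h was -0.62 ± 0.39 (SE) and -0.04 with a day block, and at 20 h it was -0.29 ± 0.39 and -0.17 with the block. Cdh2 1387259_at gave 89.9, 93.7 and 22.2 in untreated testis and from 51.0 to 55.2 on the 4 cadmium arrays, all inside the untreated range. The third Cdh2 probe set, 1378271_at, did not pass the filter and had a signal from 14.5 to 38.3 over the 7 arrays.

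Beta-catenin links cadherins to the actin cytoskeleton through alpha-catenin and is also the transcriptional partner in Wnt signalling. Ctnnb1 has 4 probe sets, and the leading one, 1373470_at, gave 1583.5, 1705.0 and 2033.0 in untreated testis, 1759.1 and 1812.0 at 8 h, and 1645.5 and 1949.3 at 20 h. All cadmium arrays lay inside the untreated range, with log2 fold changes of 0.02 ± 0.15 (SE) at both times and a 95% interval from -0.32 to 0.36 (limma, adjusted p = 0.989 and 0.999). Ctnnb1 1373067_at gave 1944.5, 1671.8 and 1366.9 in untreated testis, 1206.5 and 1239.6 at 8 h, and 1870.0 and 1419.5 at 20 h. Both 8 h arrays lay below every untreated array, and both 20 h arrays lay inside the untreated range. It was the only member probe set kept whose 8 h and untreated arrays did not overlap (1 of 15; 23.0% of all probe sets did not overlap) and the only one with an unadjusted p under 0.05 at 8 h, with a log2 fold change of -0.42 ± 0.18 (SE; limma, unadjusted p = 0.043, adjusted p = 0.836). With a day block it was -0.19 ± 0.11, and against the untreated array of their day the 8 h arrays differed by -0.18 and -0.14. The leading probe set, at 0.02 without the block, was at -0.16 ± 0.11 with it, and its 8 h arrays differed by -0.21 and -0.16 from the untreated array of their day.

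Ctnnb1 1369733_at turned with the handling of the day. It gave 150.5, 196.8 and 53.1 in untreated testis, 126.5 and 92.4 at 8 h, and 178.1 and 72.8 at 20 h. All cadmium arrays lay inside the untreated range, and the log2 fold change at 8 h was -0.12 ± 0.48 (SE; limma, adjusted p = 0.973). With a day block it was 0.82 ± 0.25 (limma, adjusted p = 0.805, unadjusted p = 0.0099), where 6.11% of all probe sets had an unadjusted p under 0.05. Each cadmium array was above the untreated array of its day, by 1.06 and 0.66 at 8 h and by 0.22 and 0.37 at 20 h. Of these differences 3 are taken against untreated replicate 3, whose 53.1 was the lowest value of all the arrays. The leading probe set and 1369733_at ran opposite to each other over the arrays (r = -0.91, 7 arrays). The fourth Ctnnb1 probe set, 1375284_at, did not pass the filter, with a signal from 0.9 to 19.7.

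Ctnna1 encodes alpha-catenin, which binds beta-catenin and actin. Its probe set, 1371921_at, gave 534.9, 569.4 and 664.9 in untreated testis, 595.0 and 565.1 at 8 h, and 518.6 and 586.7 at 20 h. Only 20 h replicate 1 lay below the untreated range, by a small step. The log2 fold change was -0.02 ± 0.15 (SE) at 8 h, with a 95% interval from -0.37 to 0.33, and -0.09 ± 0.15 at 20 h, from -0.44 to 0.26 (limma, adjusted p = 0.988 and 0.999). Each cadmium array was below the untreated array of its day, by -0.16 and -0.23 at 8 h and by -0.04 and -0.18 at 20 h. Of these differences 3 are taken against untreated replicate 3, whose 664.9 was the highest value of all the arrays.

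The leading probe set of Gja1, the gene of connexin 43, was low on 1 cadmium array. Gja1 1372002_at gave 1412.3, 1276.5 and 1791.8 in untreated testis, 1490.5 and 1613.0 at 8 h, and 832.0 and 1644.7 at 20 h. Of the cadmium arrays only 20 h replicate 1 lay outside the untreated range, and the other 20 h array was inside it. The log2 fold change was 0.07 ± 0.26 (SE) at 8 h and -0.33 ± 0.26 at 20 h, with a 95% interval from -0.92 to 0.25 (limma, adjusted p = 0.971 and 0.999). With a day block it was -0.36 ± 0.16 at 8 h and -0.44 ± 0.15 at 20 h, the latter with an unadjusted p of 0.014 and an adjusted p of 0.848 in limma, where 5.74% of all probe sets had an unadjusted p under 0.05. Each cadmium array was below the untreated array of its day, by -0.26 and -0.15 at 8 h and by -0.75 and -0.12 at 20 h. Of these differences 3 are taken against untreated replicate 3, whose 1791.8 was the highest value of all the arrays. The 20 h value without the block rests on 1 array: without 20 h replicate 2 it was -0.82, and without 20 h replicate 1 it was 0.15.

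Gja1 1369640_at had the opposite sign to the leading probe set at 8 h and the same sign at 20 h. This held with and without a day block. Gja1 1369640_at gave 126.0, 201.3 and 34.3 in untreated testis, 39.8 and 36.4 at 8 h, and 72.3 and 23.0 at 20 h. Its log2 fold changes of -1.11 ± 0.58 (SE) at 8 h and -0.99 ± 0.58 at 20 h were the largest of the 15 (limma, adjusted p = 0.836 and 0.999). Yet both 8 h arrays were above the untreated array of their day, and with a day block the 8 h value was 0.03 ± 0.32. At 20 h the value with a day block was -0.53 ± 0.28. The 20 h arrays differed by -0.69 and -0.38 from the untreated array of their day. Gja1 1369639_at did not pass the filter, with a signal from 3.7 to 30.2.

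**Figure D2:**
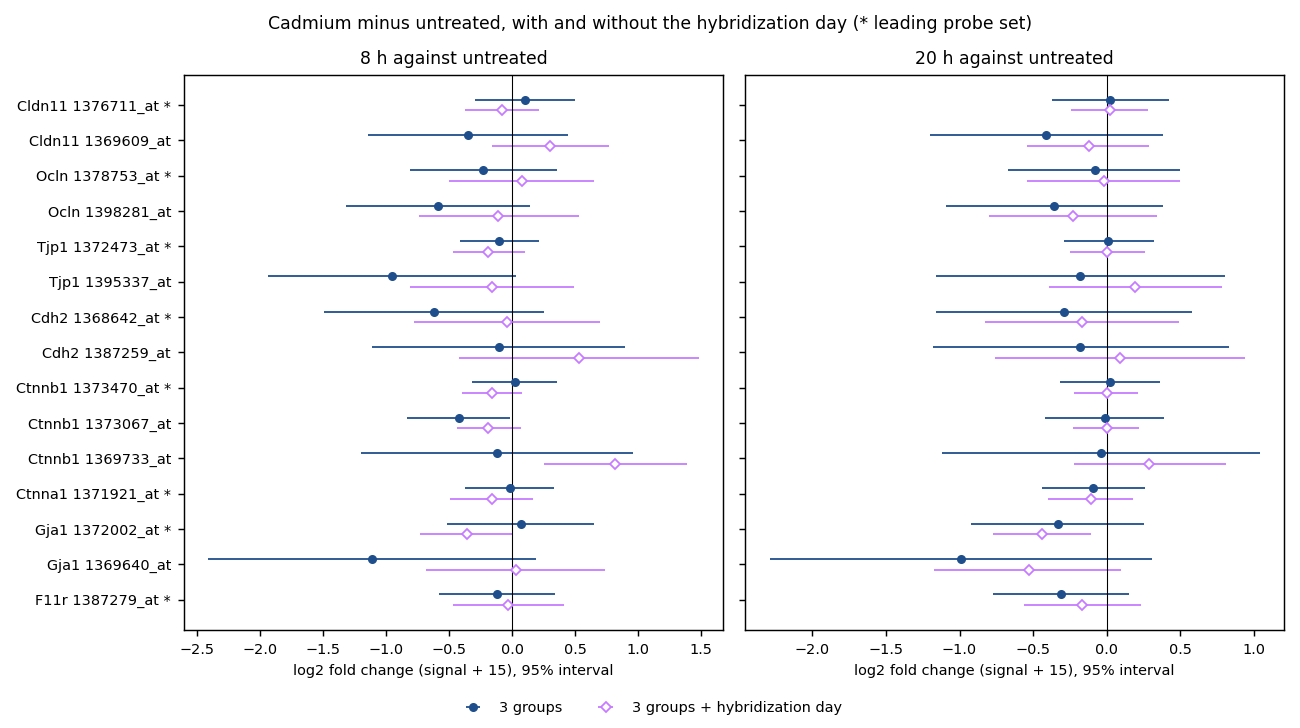
Log2 fold change of signal + 15 (x axis) with its 95% interval from limma for the 15 member probe sets that passed the filter (y axis; an asterisk marks the leading one of a gene), at 8 h on the left and at 20 h on the right. Filled points are from the fit of the 3 groups and open points from the fit that also holds the hybridization day; the intervals of most points span 0, and the open points of Gja1 1369640_at, Tjp1 1395337_at and Cdh2 1368642_at at 8 h lie much nearer to 0 than the filled ones.

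Markers of Leydig cells, which also make connexin 43, were low on the array where the leading Gja1 probe set was lowest. Gja1 1369640_at had its lowest signal on 20 h replicate 2, at 23.0, and had 72.3 on 20 h replicate 1, an array of another day. Against the untreated array of its day, this probe set was lowest on 20 h replicate 1, at -0.69, with -0.38 on 20 h replicate 2. Summed signal of 8 Leydig cell markers was 7091 to 9923 in untreated testis, 9116 to 13292 at 8 h, and at 20 h 3764.5 on replicate 1 and 9294.4 on replicate 2. Against the untreated array of its day, 20 h replicate 1 had 7 of the 8 markers lower, with a median of -0.66. Cyp17a1, the steroid 17-alpha-hydroxylase, differed by -2.99, Hsd3b1, a 3-beta-hydroxysteroid dehydrogenase, by -1.97, and Cyp11a1, the side-chain cleavage enzyme, by -1.93. Insl3, a Leydig cell peptide hormone, differed by -0.19 and Hsd11b1 by 0.11. On 20 h replicate 2 the median was -0.07, and on the 8 h arrays it was 0.19 and -0.34. In whole testis, fewer cells of a type and less RNA per cell cannot be told apart. Endothelial markers were low on 20 h replicate 1 too, with 8 of 10 lower than on the untreated array of its day and a median of -0.86. The part of Leydig and endothelial cells in the Gja1 value was not tested.

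**Figure D3:**
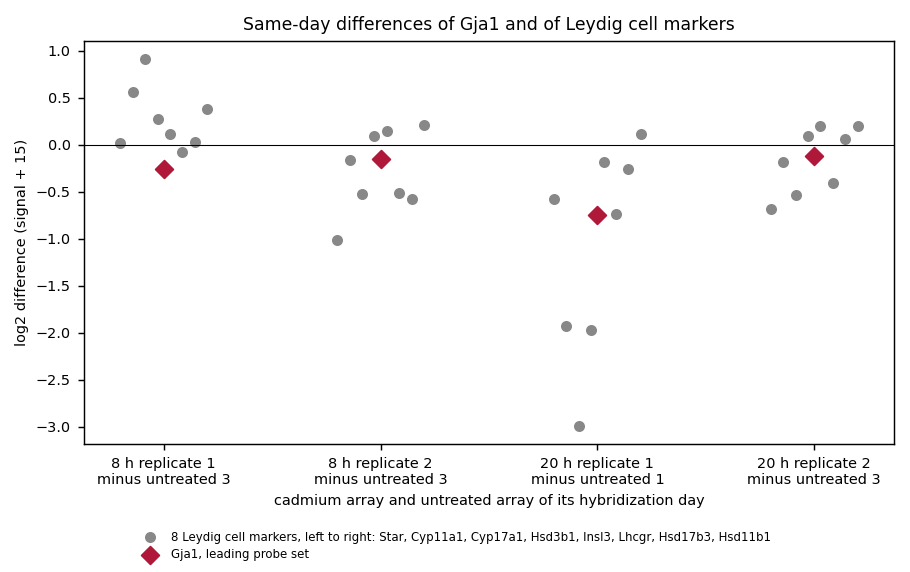
Log2 difference in signal + 15 (y axis) between each cadmium array and the untreated array of its hybridization day (x axis), for the leading Gja1 probe set (diamond) and 8 Leydig cell markers (grey points, in the order of the legend). On 20 h replicate 1 Gja1 is at -0.75 and the markers reach from -2.99 to 0.11; on 20 h replicate 2 Gja1 is at -0.12.

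Most of the 15 member probe sets were below untreated at both times, as were most probe sets on the array. At 8 h 12 of 15 were lower than untreated, with a median log2 fold change of -0.12, where all probe sets had a median of -0.08 and 61.0% were lower. At 20 h 12 of 15 were lower, with a median of -0.18 against -0.05 for all, of which 58.8% were lower. Counted once per gene, by the leading probe set, 5 of 8 were lower at each time (62.5%), with medians of -0.06 and -0.09. Over cadmium at both times together 13 of 15 were lower, with a median of -0.16 against -0.07 for all, 0 of the 15 passed (0% of all), 0 had an unadjusted p under 0.05 (4.90% of all), and in 0 of the 15 did the 4 cadmium arrays not overlap the untreated ones (6.72% of all). Blocking on the day gave medians of -0.08 at 8 h and -0.02 at 20 h, and over both times 2 of the 15 then had an unadjusted p under 0.05 in limma (7.23% of all probe sets): Gja1 1372002_at at -0.40 (adjusted p = 0.679) and Ctnnb1 1369733_at at 0.56 (adjusted p = 0.679). The medians rest on untreated replicate 3, the only untreated array of day 3: without it they were -0.55 at 8 h, -0.43 at 20 h and -0.35 over both times. Under quantile normalization 11 and 13 of the 15 were lower, and after scaling to one 75th percentile 10 and 10. In 0 of the 15 did the 20 h arrays not overlap the untreated ones (15.3% of all probe sets did not).

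The times were also set against each other. At 20 h against 8 h 9 of the 15 were higher and 6 lower, with a median of 0.08 (0.02 for all probe sets), and 0 of 15 passed in limma (0% of all), with 0 at an unadjusted p under 0.05 (1.92% of all). The direction turned with a day block, where 6 were higher and 9 lower with a median of -0.10, and without the filter on low signal, where the median was -0.03. In 4 of 15 the arrays of both times did not overlap, where 28.3% of all probe sets did not: Tjp1 1372473_at, Tjp1 1395337_at and Ctnnb1 1373067_at were higher at 20 h, and Cdh2 1387259_at was lower. Of these, Ctnnb1 1373067_at differed by 0.41 ± 0.20 (SE; limma, adjusted p = 1.0) and Tjp1 1372473_at by 0.11 ± 0.15. Tjp1 1395337_at differed by 0.78 ± 0.48, the highest of the 15, and by 0.36 ± 0.29 with a day block. Cdh2 1387259_at differed by -0.07 ± 0.49, from 54.7 and 55.2 at 8 h to 51.0 and 51.9 at 20 h.

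Member probe sets were also compared between hybridization days. In 9 of the 15 the 4 arrays of day 3 did not overlap the 3 arrays of the other days, 7 lower and 2 higher, where 29.3% of all probe sets did not overlap (18.7% lower and 10.6% higher). The median difference, day 3 minus the other days, was -0.48 over the 15 and -0.11 over all probe sets. It split by probe set within a gene: all 7 that were not the leading one of their gene were lower on day 3, with a median of -0.76, while 5 of the 8 leading ones were higher, with a median of 0.10. The leading probe set is by definition the brightest of its gene, so within a gene this is also a split by signal level. Between genes the split did not follow the signal throughout. Ctnnb1 1373067_at, at 1206.5 to 1944.5, was lower on day 3, while the dimmer Ctnna1, at 518.6 to 664.9, was at 0.15. Gja1 showed the widest split, at -1.53 for 1369640_at and 0.51 for 1372002_at, which were both apart between days. Tjp1 stood at -1.17 and 0.05, Cldn11 at -0.74 and 0.27, and Ctnnb1 at -0.95 and -0.48 against 0.20. In Ocln and Cdh2 the leading probe set was lower on day 3 too, at -0.42 and -0.88. Their signal, at most 122.0, was below that of every other leading probe set. Day 3 holds both 8 h arrays and 1 each of the untreated and 20 h arrays. The actin ratio and the array medians given above differ between the same days, while the Gapdh ratio overlaps. The part of these ratios, the medians or the signal level in the split was not tested.

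**Figure D4:**
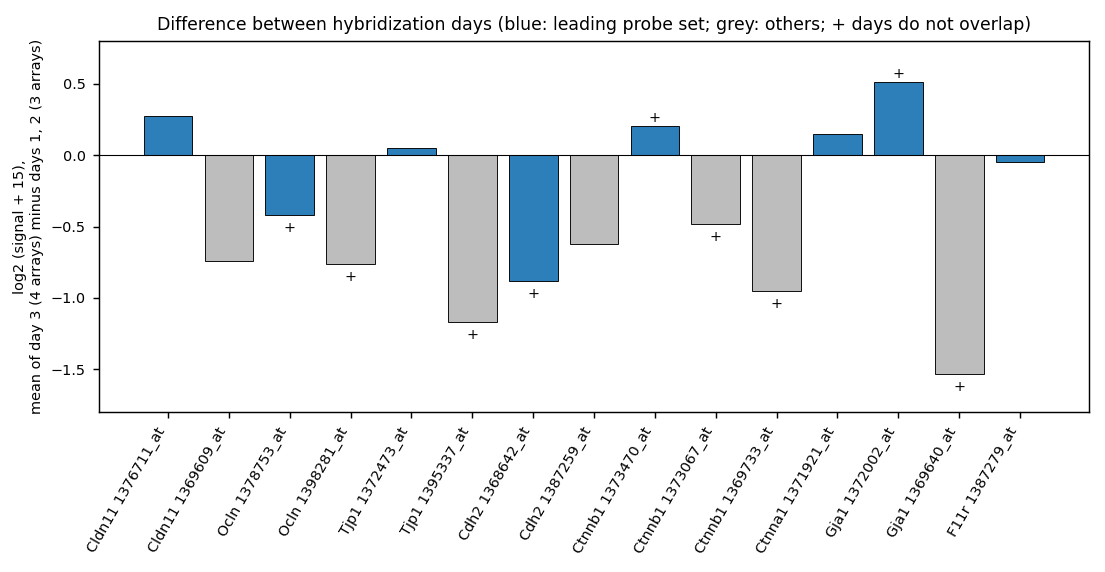
Mean log2(signal + 15) of the 4 day 3 arrays minus that of the 3 arrays of days 1 and 2 (y axis) for each of the 15 member probe sets (x axis). Blue bars are the leading probe set of a gene, grey bars the others, and a plus sign marks probe sets whose days do not overlap; all 7 grey bars lie below 0, from -0.48 to -1.53.

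Differences within a hybridization day leave the day out, at the price that 3 of the 4 use the same array, untreated replicate 3. On this measure the 15 member probe sets had medians of 0.01 and -0.06 on the 8 h arrays, and -0.09 and 0.00 on the 20 h arrays. On 20 h replicate 1 12 of 15 were lower, where 57.9% of all probe sets were. In 3 of 15 all 4 differences had one sign, where 29.9% of all probe sets did: Gja1 1372002_at and Ctnna1 were lower and Ctnnb1 1369733_at was higher. That is no larger a share than over all probe sets. Cdh2 1387259_at differed by 0.91 and 0.92 at 8 h and by -0.67 and 0.85 at 20 h, and its 3 high values are all taken against the single low value of 22.2 on untreated replicate 3.

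**Figure D5:**
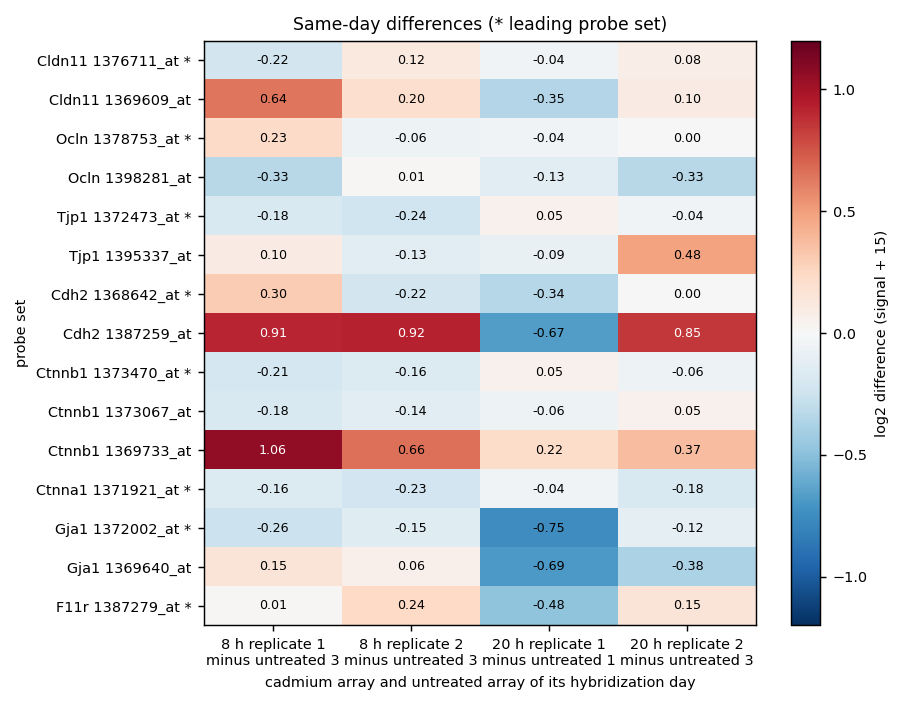
Log2 difference in signal + 15 between each cadmium array and the untreated array of its hybridization day (columns) for the 15 member probe sets (lines of cells; an asterisk marks the leading one of a gene), with the value printed in each cell and shown as colour. Gja1 1372002_at and Ctnna1 are below 0 in all 4 columns and Ctnnb1 1369733_at is above 0 in all 4; 3 of the columns share untreated replicate 3.

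Other genes of the junctions were taken from 7 lists, 115 genes with a probe set of their own, of which 97 passed the filter. With limma 0 of the 97 passed in any comparison, and 4 had an unadjusted p under 0.05 at 8 h (5.22% of all probe sets) and 4 at 20 h (3.11%). At 8 h 59 were lower and 38 higher (median log2 fold change -0.11), and at 20 h 56 were lower and 41 higher, with a median of -0.03, where the leading probe sets of all genes had a median of -0.03 at both times and 61.0% and 58.8% of all probe sets were lower. The tight junction membrane proteins (7 of 13 genes passed the filter) had 4 higher and 3 lower at both times. The scaffold and polarity genes (16 of 18) had 5 higher and 11 lower at both times, with medians of -0.15 and -0.09. The adherens junction and ectoplasmic specialization genes (23 of 24) had 14 higher at 8 h and 13 at 20 h, with medians of 0.02 and 0.02. Gap junction and desmosome genes (8 of 14) had 2 higher and 6 lower at both times, with medians of -0.23 and -0.12. Integrin and focal contact genes (11 of 11) had 8 lower at 8 h and 7 higher at 20 h. Beta-catenin partners and targets (10 of 11) had 6 lower at both times, and barrier regulators (22 of 24) had 16 lower at both times. These counts lean on the scaling: under quantile normalization 52 of the 97 were lower at 8 h and 47 at 20 h, after scaling to one 75th percentile 49 and 43, and with a day block 49 and 51. Of the barrier regulators, 12 were lower at 8 h under each of these settings, and at 20 h 12, 10 and 12.

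From each list the 2 genes with the smallest F test p over the 3 groups were looked at, and 0 of the 14 passed (limma, adjusted p = 0.99 for each). Genes picked by their p tend to have small unadjusted p-values and groups that do not overlap. Both are given below as description only, and the shares beside them are of all probe sets, which were not so picked. Ybx3, a Y-box protein that binds ZO-1, gave 7454.1, 7355.2 and 7419.6 in untreated testis, 10378.0 and 9479.8 at 8 h, and 7861.5 and 8812.8 at 20 h. Every cadmium array was above every untreated array, as in 1.82% of all probe sets, and both 8 h arrays were above both 20 h arrays. Its log2 fold change was 0.42 ± 0.12 (SE) at 8 h (limma, unadjusted p = 0.0076, adjusted p = 0.836) and 0.17 ± 0.12 at 20 h, and 0.38 and 0.16 with a day block. Among the genes that bridge Sertoli and germ cells, Nectin3 gave 4772.4, 4676.1 and 4942.2 in untreated testis, 5540.5 and 5701.0 at 8 h, and 5071.2 and 5954.4 at 20 h. Its cadmium arrays were all above the untreated ones, with log2 fold changes of 0.23 ± 0.13 and 0.20 ± 0.13. Espn, an actin-bundling protein of the ectoplasmic specialization, had 0.48 ± 0.28 at 8 h and 0.00 with a day block. Pard6b, a polarity protein, gave 139.6, 179.9 and 177.3 in untreated testis and 99.4 and 121.0 at 20 h, with a log2 fold change of -0.53 ± 0.22 (limma, unadjusted p = 0.036, adjusted p = 0.999).

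Integrin alpha-6 was the one gene of the 14 whose arrays lay on opposite sides of untreated at the times. Itga6, a laminin receptor subunit, gave 125.5, 121.1 and 109.1 in untreated testis, 84.1 and 83.0 at 8 h, and 154.6 and 150.8 at 20 h. The groups did not overlap, and 20 h exceeded 8 h by 0.77 ± 0.22 on the log2 scale (SE, limma, unadjusted p = 0.0057, adjusted p = 1.0). Of all probe sets, 23.0% did not overlap between 8 h and untreated, 15.3% between 20 h and untreated, and 28.3% between the times. Its partner Itgb1 gave 275.6, 380.8 and 416.6 in untreated testis, 459.4 and 435.0 at 8 h, and 526.7 and 468.4 at 20 h. All cadmium arrays were above the untreated ones, with log2 fold changes of 0.33 ± 0.19 and 0.48 ± 0.19. Against the untreated array of their day, the Itgb1 differences were 0.14 and 0.06 at 8 h, 0.9 on 20 h replicate 1 and 0.16 on 20 h replicate 2. Tcf7l1, a transcription factor that binds beta-catenin, gave 44.6, 21.5 and 29.0 in untreated testis, 85.9 and 48.1 at 8 h, and 69.8 and 66.5 at 20 h. The Tcf7l1 signals are low. In Tcf7l1, as in Itgb1, every cadmium array was above every untreated one, as in 1.82% of all probe sets. The log2 fold changes of Tcf7l1 were 0.80 ± 0.34 and 0.86 ± 0.34. Axin2, a target and inhibitor of the Wnt pathway, had -0.93 ± 0.46 at 8 h, where its arrays read 36.8 and 3.0. Of the regulators, Timp1, a metalloproteinase inhibitor, had 1113.9 and 611.5 on the 20 h arrays against 323.3 to 654.2 in untreated testis. Nos2, the inducible nitric oxide synthase, had 9.5 and 9.9 at 8 h against 17.8 to 69.3, where values lie below the 15 added before the log.

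Of the same 14 genes, 3 are known from blood vessels, though whole testis does not assign their signal to a cell type. Gja4, for the vascular connexin 37, gave 52.0, 63.8 and 46.6 in untreated testis, 3.7 and 33.5 at 8 h, and 11.9 and 31.8 at 20 h. All 4 cadmium arrays lay below the untreated ones, as in 4.90% of all probe sets, with log2 fold changes of -1.19 ± 0.48 (SE) and -0.95 ± 0.48 (limma, adjusted p = 0.836 and 0.999). Cldn5, a claudin of endothelium, split within both times, with 62.7 and 52.5 on replicate 1 of each time and 236.1 and 252.9 on replicate 2, against 231.9 to 241.4 in untreated testis. Esam, an endothelial adhesion molecule, had -0.60 ± 0.27 at 8 h and -0.07 ± 0.27 at 20 h, and -0.24 and 0.09 with a day block. Gja6, a connexin of the rat testis, had -0.48 ± 0.26 and -0.20 ± 0.26, and -0.23 and -0.14 with the block. Summed signal of 11 endothelial markers, which include Cldn5 and Esam, was 960 to 1107 in untreated testis, 558 to 796 at 8 h and 640 to 875 at 20 h, with 10 of the 11 passing the filter and Pecam1, a defining marker, from 5.2 to 36.4. Within days the medians of the 10 were -0.58 and -0.22 on the 8 h arrays, -0.86 on 20 h replicate 1 and 0.02 on 20 h replicate 2, where 4 of 10 were lower. The part of endothelial cells in these values was not tested. The leading probe set of Cldn11, a claudin of Sertoli cells, had 2644.8 to 3648.7 on the 4 cadmium arrays against 2714.5 to 3361.6 in untreated testis.

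Each member was last set beside the genes whose signal ran most like it over the 7 arrays, among 11539 genes. The pair with the highest Pearson r was Zfp536 and Psmb8 for Cldn11 (0.979 each), Cep170b and Wdr59 for Ocln (0.992 and 0.989), and Zfpl1 and Tpm2 for Tjp1 (0.977 and 0.963). It was Fgf16 and Sesn3 for Cdh2 (0.991 and 0.990), Atp5f1e and Polr2j for Ctnnb1 (0.988 each), and Htra3 and Lsp1 for Ctnna1 (0.985 and 0.980). For Gja1 it was Rhobtb1 and Mpc1 (0.992 and 0.988), and for F11r Pex3 and Trappc10 (0.990 and 0.984). No member was among the nearest genes of another. The points of these correlations are 7 arrays that share hybridization days, and the highest of so many correlations over 7 points is high by selection.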

How the data were processed

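The authors deposited a linear signal intensity for each probe set of 7 Affymetrix Rat230_2 arrays; MAS 5.0 and GeneSpring 7.2 are named in the series' design text, and MAS5 per the submitters' processing notes. RNA was extracted with Trizol and RNeasy and labelled with biotin, per the labels' protocols. The instrument's experiment files hold other information, per the file headers (settings, no measured values), and gave the hybridization day. Untreated replicate 2 was stained at 25 °C for 600 s, the other arrays at 35 °C for 300 s.

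Of 31099 probe sets 57 are controls; 20826 of the rest name 1 gene, 436 several and 9780 none here. A probe set was kept if 2 or more arrays had it above that array's 40th percentile (20857 kept). Log2(signal + 15) was fitted over the 3 groups in limma 3.58.1 (R 4.3.3, eBayes with trend, 4 residual degrees of freedom) and adjusted by Benjamini-Hochberg with a threshold of 0.05. With the hybridization day as a block 2 residual degrees of freedom were left, and untreated replicate 2, alone on its day, was set aside. Fold changes are on this scale, which understates those of dim probe sets. An array gives no count, so the number of arrays limits the precision; where replicates are not separate animals, the p-values measure only the spread between these samples. The steps were tested on simulated data.

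Members and lists were chosen with earlier results of these data known. Named are all members and, from each junction list, the 2 genes with the smallest F test p; of several probe sets of a gene the leading one has the highest mean log2 signal. The lists were tight junction membrane proteins, scaffold and polarity, adherens junction and ectoplasmic specialization, gap junction and desmosome, integrin and focal contact, beta-catenin partners and targets, and barrier regulators. Alternatives were pseudocounts of 1 and 50, no filter, a filter at the 60th percentile, quantile normalization, scaling to one 75th percentile, the day or the replicate number as a block, no trend, same-day differences, the mean over the probe sets of a gene, and each array left out. Arrays were not paired by replicate number: correlations of the differences between replicates 1 and 2 were -0.02, 0.08 and 0.17 between groups, over 11552 genes.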

Additional observations from a re-analysis of the deposited data

How the results depend on the processing

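Of 572 values of the leading member probe sets under alternative settings, 0 passed the threshold, 30 moved by more than the spread between replicates and 91 changed sign; of 472 values of the other member probe sets 0 passed, 18 moved and 63 changed sign. The lowest adjusted p among them was 0.196 and 0.187 in limma. With the replicate number as a block the member median at 8 h was -0.55, against -0.12 without it; no other array shares the number of untreated replicate 3, so the block sets that array aside. It changed no call, though 3759 probe sets at 8 h, 1919 at 20 h and 3584 for both times then had an unadjusted p under 0.05. With each array left out in turn, the member median ran from -0.55 to -0.06 at 8 h, from -0.43 to -0.02 at 20 h, from -0.35 to -0.09 for both times and from 0.02 to 0.20 for 20 h against 8 h. The last turned to -0.10 with the day as a block and to -0.03 without a filter. Over all probe sets limma called 0 in each comparison, with 1088 at an unadjusted p under 0.05 at 8 h, 648 at 20 h, 1022 for both times and 401 for 20 h against 8 h. With each array left out the calls ran from 0 to 1 at 8 h (1 without 8 h replicate 2), 0 to 8 at 20 h (8 without 20 h replicate 2), 0 to 1 for both times and for the F test (1 without 8 h replicate 2) and 0 to 1 for 20 h against 8 h (1 without 8 h or 20 h replicate 2), none of them a member. Where an array left out leaves its group with 1, that array is assumed to vary like the other groups. Quantile normalization moved the median of all probe sets from -0.08 to 0.01 at 8 h and from -0.05 to 0.00 at 20 h. Signal near the 15 added before the log limits the dim probe sets of Cdh2, Ctnnb1 and Gja1 that did not pass the filter.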
